A study of Mus musculus with 20 samples.

Results

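The collagen genes are the protein-coding genes whose symbol is Col, a number, the letter a and a number, each coding for 1 chain of a collagen. They make up 44 of the 37620 genes listed for Trpv1 sensory neurons sorted from mouse dorsal root ganglia (DRG). Of these, 43 carry such a symbol in the mm9 annotation, and Col26a1 is listed there under its older name Emid2. The study set lumbar DRG (L4-5) against sacral DRG (L6-S1) of the same donors, 5 of each sex, so that each donor has 2 of the 20 libraries and each of the 4 groups holds 5. All donors were adults of 6 to 8 weeks and homozygous for Trpv1tm2Bbm, the TrpV1PLAP-nLacZ allele, in which β-galactosidase marks the cells that transcribe Trpv1. Mice without the allele were not analysed here. Ganglia were dispersed with collagenase and trypsin, and the cells with the brightest DDAO, the fluorescent product of β-galactosidase, were sorted. The labels name 2 animals for each donor where the methods speak of 1, and whether cells of several animals were joined is not given in the sources used here.

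Collagens are built from 3 chains, which wind into a triple helix wherever their sequence is an unbroken row of Gly-X-Y triplets, with glycine at the start of each. Fibrillar collagens assemble into the fibrils of connective tissue, and type IV collagens form the sheet-like network of basement membranes. FACIT collagens, whose helices are interrupted, bind to the surface of fibrils, and transmembrane collagens sit in the plasma membrane of the cell that makes them. In a sensory ganglion, fibroblasts, satellite glia, Schwann cells and vessel cells lay down most of this matrix around the neurons, and each neuron with its glial wrap is enclosed by basement membrane.

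The feature that all members share was read from the coding sequence of GENCODE transcripts on the mm9 build, in which glycine codons begin with GG. The opening 20 codons of the longest uninterrupted run of Gly-X-Y triplets are shown for a fibrillar chain, a basement membrane chain and a pair of transmembrane chains, since these are the members the comparisons turn on. Capitals mark the glycine codon that opens each triplet.
Col1a2: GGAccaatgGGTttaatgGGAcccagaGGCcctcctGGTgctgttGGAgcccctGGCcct
Col4a1: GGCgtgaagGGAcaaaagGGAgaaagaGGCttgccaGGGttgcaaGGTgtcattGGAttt
Col23a1: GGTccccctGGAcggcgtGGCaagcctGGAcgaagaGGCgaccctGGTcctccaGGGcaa
Col25a1: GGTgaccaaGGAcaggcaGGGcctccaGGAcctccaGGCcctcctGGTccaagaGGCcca
These stretches begin at codon 97 of Col1a2, codon 43 of Col4a1, codon 110 of Col23a1 and codon 189 of Col25a1. The run went on for 339 triplets in Col1a2, against 40 in Col4a1, 43 in Col23a1 and 40 in Col25a1. Across the 11 fibrillar genes the longest run was 216 to 344 triplets. It was 39 to 66 in the 6 type IV genes, whose coding sequences held 23 to 27 separate runs of at least 3 triplets, and 40 to 55 in the 4 transmembrane genes.

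The deposited unit, log2 RPKM, divides reads by gene length and library size before the log2 is taken, so that levels can be compared between genes. Reads worked back from these values came to 43545659 to 65626655 on genes per library, and every library had a median of 0.93 over its genes with a value. Of the 10 neuronal markers examined, all had a value in each library, and their summed level was 2163 to 3184 RPKM in lumbar and 2802 to 3709 in sacral libraries. Markers of satellite glia reached sums of 1148 to 2682 RPKM in lumbar libraries, and whether this RNA came from other cells among those sorted or from the neurons was not tested. Between the levels, 15871 genes were tested with limma with the donor as a random block, and log2 fold changes are lumbar minus sacral. Their median was -0.12, and the 5th and 95th percentiles were -0.73 and 1.10.

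Out of every 1000000 reads on genes, the 44 members took 375 to 933 in lumbar libraries (median 601) and 250 to 633 in sacral libraries (median 405). A value in every library was present for 33 members, and 11 lacked one in some. Over the lumbar libraries, the type I chain Col1a2 gave 13.8% of collagen reads, Col28a1 12.4%, Col12a1 10.4% and Col3a1 9.24%. Over the sacral libraries Col28a1 gave 13.3%, Col1a2 12.2%, Col12a1 11.7% and Col3a1 7.79%. The order of the first pair differed between libraries, with more reads for Col1a2 in 4 of 5 male and 2 of 5 female lumbar libraries and in 3 of 5 male and 0 of 5 female sacral libraries. Per kilobase, Col28a1 had the highest mean level, at 3.83 log2 RPKM, followed by Col8a1 at 2.78, Col4a1 at 2.49, Col1a2 at 2.42 and Col3a1 at 2.25. Mean levels above the library median were seen for 11 members, and 28 had a mean below 0 on the log2 scale, which is less than 1 RPKM.

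**Figure D1:**
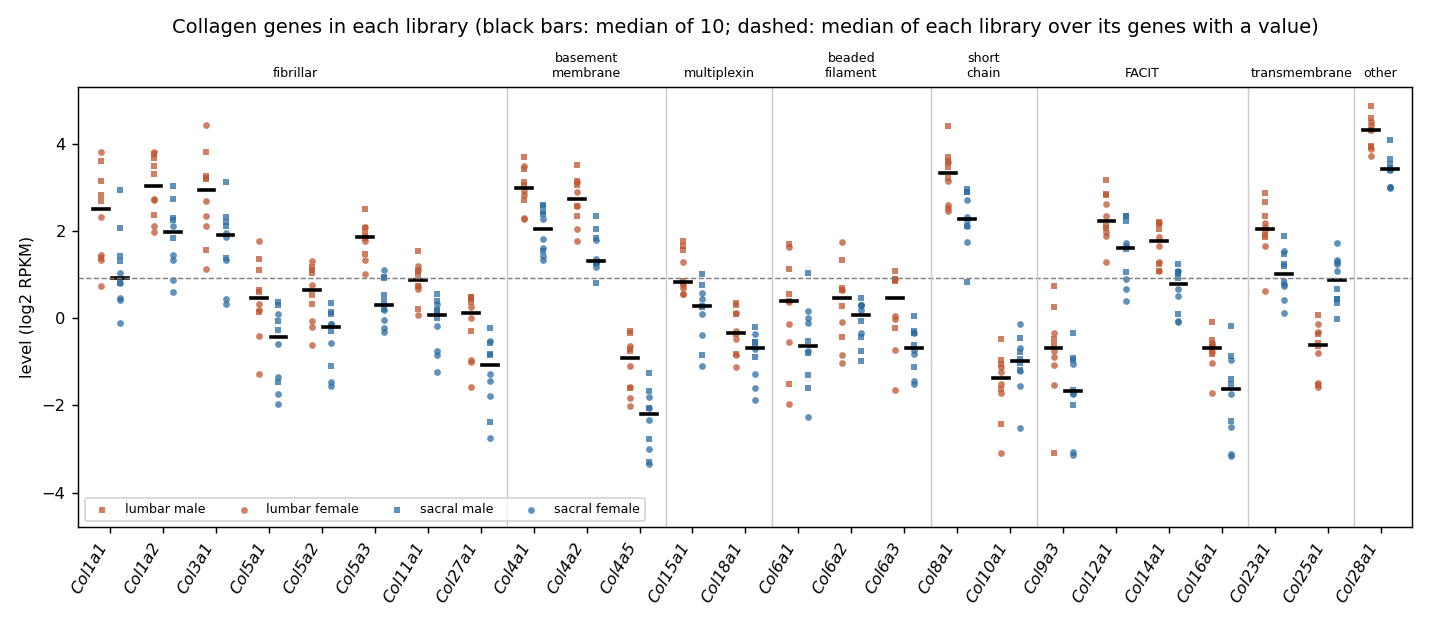
Level of the 25 tested collagen genes (log2 RPKM, y axis) in each of the 20 libraries, by collagen class; squares are male and circles female donors, black bars the median of 10 libraries, and the dashed line the median of 0.93 over the genes of a library. Lumbar and sacral values overlap for every gene, the lumbar median sits above the sacral one for all but Col10a1 and Col25a1, and Col28a1 has the highest median at both levels.

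Of the 44 members, 25 were tested, and 20 of them were higher in lumbar DRG (adjusted p of 0.05 or less). Their log2 fold changes were 0.57 to 1.42 (1.48 to 2.68-fold). Over all genes tested, 15.6% were higher in lumbar DRG. A single member, Col25a1, was higher in sacral DRG, against 31.3% of all genes, and 4 did not pass the test. The shares over all genes depend on how libraries are scaled: 21.4% were higher in lumbar and 22.8% in sacral DRG with TMM factors, 19.3% and 21.8% with quantile normalization, and 8.39% and 60.5% with voom on total reads. Under those scalings 21, 19 and 19 collagens were higher in lumbar DRG and 1, 1 and 2 in sacral DRG (limma). The median log2 fold change of the 25 was 0.99, against 0.65 with voom on total reads, where the median of all genes was -0.45. In 12 of the 25 the lumbar library was the higher one in all 10 donors, against 6.55% of the genes with a value in every library. Col25a1 was higher in the sacral library in all 10 donors, as were 14.6% of those genes. Ranges of the lumbar and sacral libraries overlapped for each of the 25 members. Among all genes with complete values, lumbar libraries stood wholly above sacral ones for 0.372% and sacral wholly above lumbar for 1.34%. Genes entered the test when their mean was above -1 log2 RPKM in at least 1 group, which a gene can pass through the level where it is high. The mean exceeded -1 at both levels for 20 members, of which 17 were higher in lumbar DRG, Col25a1 was higher in sacral DRG, and Col6a1 and Col6a2 did not pass the test. Each library is a bulk RNA sample, in which more cells of a type and more RNA per cell cannot be told apart.

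**Figure D2:**
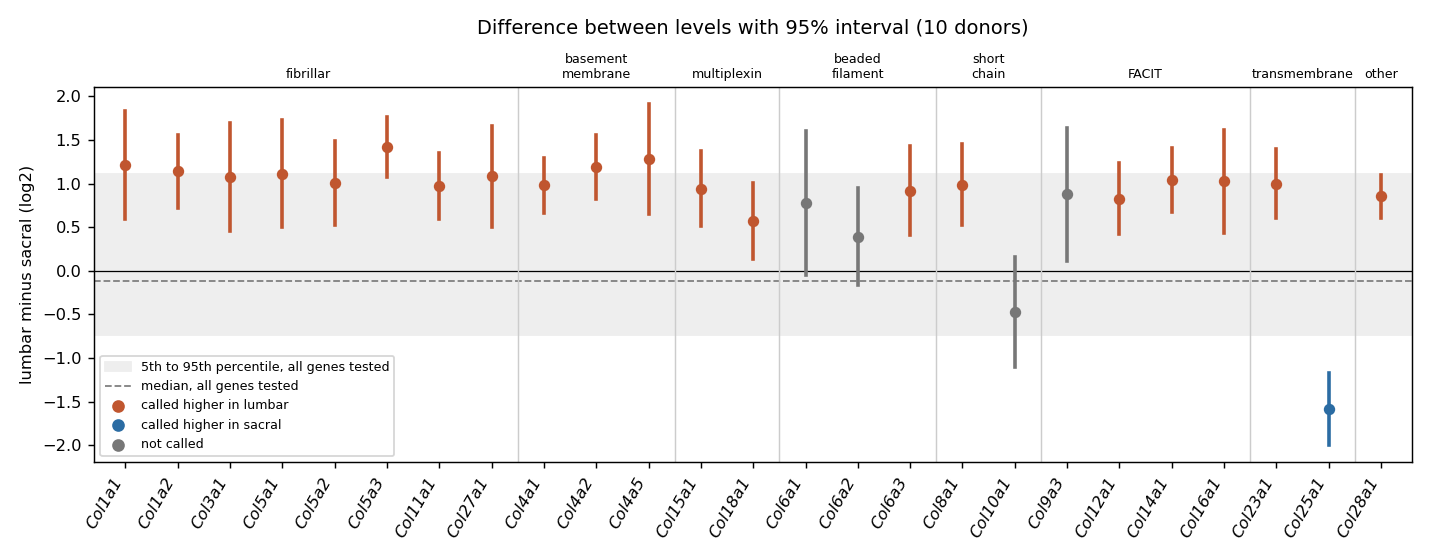
Lumbar minus sacral difference (log2, y axis) of the 25 tested collagen genes with its 95% interval over 10 donors, by class; the grey band spans the 5th to 95th percentile of all genes tested and the dashed line is their median of -0.12. Differences lie between 0.57 and 1.42 for the 20 genes called higher in lumbar DRG, and Col25a1 alone lies below the band, at -1.59.

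Fibrillar collagens were higher in lumbar DRG in each of the 8 members tested, by 0.97 to 1.42, and 3 of the 11 were too low to test. Col1a2 (ENSMUSG00000029661, chromosome 6 of mm9, 4454814 to 4491543) codes for the α2 chain of type I collagen, the main collagen of connective tissue. Its lumbar level ran from 1.97 to 3.82 log2 RPKM with a median of 3.03, and its sacral level from 0.61 to 3.03 with a median of 1.98. All 10 donors had more in lumbar DRG, although the ranges overlapped, also within each sex: the lumbar library of male donor M5, at 2.37, lay below the sacral libraries of male donors M1 and M3, at 2.74 and 3.03, and that of female donor F5, at 1.97, below the sacral library of female donor F3, at 2.11. The difference was 1.14 (SE 0.20, adjusted p = 0.000123, limma). Col1a1 (chromosome 11, 94797538 to 94814356), its partner chain in the type I trimer, ran from 0.75 to 3.82 in lumbar (median 2.51) and from -0.12 to 2.94 in sacral libraries (median 0.93). Its log2 fold change was 1.22 (SE 0.30, adjusted p = 0.00223), again in 10 of 10 donors. Col3a1 (chromosome 1, 45368383 to 45406551), the chain of type III collagen in soft tissues and vessel walls, ran from 1.14 to 4.43 (median 2.94) and from 0.32 to 3.13 (median 1.91). It differed by 1.07 (SE 0.30, adjusted p = 0.00573), in all 10 donors.

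Of the 20 tested collagens higher in lumbar DRG, the largest difference belonged to Col5a3 (ENSMUSG00000004098, chromosome 9, 20574494 to 20619511), a chain of type V collagen, which joins type I in fibrils. Lumbar libraries held 1.01 to 2.51 log2 RPKM (median 1.86) and sacral libraries -0.33 to 1.11 (median 0.30), so that the ranges met over a narrow stretch. All 10 donors had more in lumbar DRG, by 1.42 (SE 0.17, adjusted p = 2.39e-06, limma), or 2.68-fold. Col5a3 overlaps a 7SK RNA gene annotated on the opposite strand. The other type V chains, Col5a1 and Col5a2, were 1.11 and 1.0 higher, and Col11a1 and Col27a1, fibrillar chains best known from cartilage, 0.97 and 1.08 higher. The cartilage chain Col2a1 had no more than 116 reads in any library and lacked a value in 5 of the 20.

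For Col1a2 the 250 bases before the start are shown, to set beside the transmembrane genes further on. They come from RefSeq on GRCm38.p6 (chr6:4505368-4505617, + strand), a later build than mm9, and capitals mark matches on either strand to 3 short motifs: the letters TATAAA of the TATA box, the letters CCAAT of the CCAAT box and the letters GGGCGG of the GC box.
Col1a2: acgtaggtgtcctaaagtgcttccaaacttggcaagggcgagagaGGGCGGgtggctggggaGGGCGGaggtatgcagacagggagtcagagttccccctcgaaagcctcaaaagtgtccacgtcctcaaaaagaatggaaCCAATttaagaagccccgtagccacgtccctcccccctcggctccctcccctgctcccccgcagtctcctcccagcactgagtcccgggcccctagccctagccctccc
Windows were found for 35 members, several with more than 1 start, which gave 38 windows. GGGCGG or its reverse was present in 22 of the 38, against 32.7% of the 32851 windows of all genes. CCAAT or its reverse was present in 13, against 33.8% of all windows, and TATAAA or its reverse in 5, against 12.4%. Such a match is a description of letters and not of a bound site.

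Of the 6 basement membrane collagens, 3 were tested and were higher in lumbar DRG, and of these Col4a5 passed the level filter through the lumbar male group alone. Col4a1 (ENSMUSG00000031502, chromosome 8, 11198423 to 11312826, minus strand) and Col4a2 (chromosome 8, 11312805 to 11449287, plus strand) form the type IV trimer found in most basement membranes. Col4a1 ran from 2.28 to 3.71 log2 RPKM in lumbar (median 2.99) and from 1.34 to 2.61 in sacral libraries (median 2.04). Its difference of 0.98 (SE 0.15, adjusted p = 3.72e-05, limma) was seen in 10 of 10 donors. Col4a2 ran from 1.78 to 3.52 (median 2.74) and from 0.80 to 2.34 (median 1.32), and was 1.19 higher in lumbar DRG (SE 0.18, adjusted p = 2.40e-05), also in all donors. At both genes the highest sacral value, of a male donor, exceeded the lowest lumbar value, of a female donor. For Col4a2 the ranges also overlapped within each sex. Lumbar M5, at 2.336, lay below sacral M2, at 2.342, and lumbar F2, at 1.776, below sacral F3, at 1.787. The chains Col4a3, Col4a4 and Col4a5 form the other common type IV network. Col4a5 (X chromosome, 137909928 to 138123778) was low, at -2.02 to -0.29 in lumbar (median -0.92) and -3.36 to -1.26 in sacral libraries (median -2.21). It was 1.28 higher in lumbar DRG (SE 0.30, adjusted p = 0.00178, limma), in 10 of 10 donors. Col4a3 and Col4a4, at means of -2.02 and -2.21, were below the level needed for the test, and Col4a6 had at most 28 reads.

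Col4a1 and Col4a2 lie head to head, and on mm9 their annotated exons share 22 bases at the starts. The RefSeq starts on GRCm38.p6 share the same number of bases, at chr8:11312805-11312826, shown on the + strand because both transcripts of the pair begin inside them.
Col4a1 and Col4a2: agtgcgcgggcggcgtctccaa
Levels of the pair rose and fell together across donors, with Pearson's r = 0.90 (permutation p = 0.0006) and Spearman's rho = 0.88 (permutation p = 0.00181) over the 10 lumbar libraries. In the 10 sacral libraries r was 0.78 (permutation p = 0.0108) and rho 0.71 (permutation p = 0.0272). Without the 2 libraries farthest from the median of Col4a1, r was 0.80 in lumbar and 0.82 in sacral libraries. Col4a3 and Col4a4, the other head-to-head pair with values throughout, gave r = 0.09 in lumbar (permutation p = 0.794) and -0.12 in sacral libraries (permutation p = 0.748), with rho = 0.21 (permutation p = 0.56) and -0.22 (permutation p = 0.536). Without the 2 libraries farthest from the median of Col4a3, r was 0.48 in lumbar and -0.64 in sacral libraries, so the values of this pair rest on a few libraries. Their reads numbered 32 to 342 per library, and the part of counting error in these values was not tested. Partner chains on different or neighbouring loci were also correlated. Col1a1 and Col1a2, on different chromosomes, gave r = 0.93 in lumbar (permutation p = 0.00024) and 0.91 in sacral libraries (permutation p = 0.00011), with rho = 0.95 at both levels (permutation p = 0.00011 and 9e-05). Col6a1 and Col6a2, on chromosome 10, gave r = 0.93 (permutation p = 0.00019) and 0.70 (permutation p = 0.0241), with rho = 0.96 (permutation p = 4e-05) and 0.83 (permutation p = 0.00464). Without the 2 farthest libraries, r was 0.91 and 0.87 for the type I pair and 0.95 and 0.74 for the type VI pair. Over these 8 relations, the largest Benjamini-Hochberg adjusted p of the 3 correlated pairs was 0.0321 for r and 0.0363 for rho. The 2 points of a pair come from the same library and share its depth, its cell content and the sex of its donor. Both sexes were joined in these correlations, with no term for sex.

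Both multiplexins, collagens of basement membrane zones whose ends can be released as fragments such as endostatin, were higher in lumbar DRG. Col15a1 (chromosome 4, 47221033 to 47326039) ran from 0.55 to 1.78 log2 RPKM in lumbar (median 0.84) and from -1.10 to 1.0 in sacral libraries (median 0.27), a difference of 0.94 (SE 0.21, adjusted p = 0.00099, limma) in all 10 donors. Col18a1 (chromosome 10, 76514923 to 76629293) ran from -1.11 to 0.35 (median -0.33) and from -1.88 to -0.20 (median -0.69). Its difference of 0.57 (SE 0.21, adjusted p = 0.0312) was the smallest of those that passed, in 8 of 10 donors. It no longer passed when any 1 of 7 donors was left out, with log2 fold changes of 0.47 to 0.56 (adjusted p 0.0503 to 0.0889, limma), or without the donor block (0.57, adjusted p = 0.055). Nor did it pass with quantile normalization (0.44, adjusted p = 0.0886) or with voom on total reads, where it was 0.23 (adjusted p = 0.221).

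Type VI collagen, which forms beaded filaments around cells and in the endoneurium, was divided. Col6a3, the largest of its chains, was 0.92 higher in lumbar DRG (SE 0.24, adjusted p = 0.00415, limma) in 9 of 10 donors. Col6a2 (chromosome 10, 76058507 to 76086375) ran from -1.02 to 1.75 log2 RPKM in lumbar (median 0.46) and from -0.99 to 0.47 in sacral libraries (median 0.07). All sacral values fell inside the lumbar range, 6 of 10 donors had more in lumbar DRG, and the difference of 0.39 (95% interval -0.17 to 0.95, adjusted p = 0.24) did not pass the test. Differences of single donors ran from -1.03 in donor F5 to 1.64 in donor M2, so that the size of the Col6a2 difference is poorly fixed. Col6a1 (chromosome 10, 76171537 to 76188913) ran from -1.97 to 1.70 (median 0.39) and from -2.26 to 1.05 (median -0.64). It differed by 0.77 (95% interval -0.05 to 1.60, adjusted p = 0.115), with 7 of 10 donors higher in lumbar DRG, and passed with the donor as a fixed block (adjusted p = 0.0303, limma). The difference between the chains was not tested. Col6a4, Col6a5 and Col6a6 had at most 29, 103 and 40 reads in a library.

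Of the short-chain collagens, Col8a1 (ENSMUSG00000068196, chromosome 16, 57624371 to 57754850), a component of the matrix beneath vessel endothelium, had the second highest mean level of all members. Lumbar libraries held 2.46 to 4.41 log2 RPKM (median 3.34) and sacral libraries 0.82 to 2.96 (median 2.28), and the lowest sacral value, of male donor M2, stood beside the highest lumbar value, of the same donor. The difference was 0.99 (SE 0.22, adjusted p = 0.0012, limma), in 9 of 10 donors. Col10a1 (chromosome 10, 34109787 to 34116891), the collagen of hypertrophic cartilage, ran from -3.09 to -0.48 in lumbar (median -1.37) and from -2.51 to -0.13 in sacral libraries (median -0.98). Its difference of -0.47 (95% interval -1.11 to 0.16, adjusted p = 0.207) did not pass the test, which it entered through the sacral male group alone, and the gene overlaps Nt5dc1 on the opposite strand. Differences of single donors ran from -1.97 in donor M1 to 0.79 in donor F3, so that the size of the Col10a1 difference is poorly fixed. Col8a2, at up to 65 reads, and the anchoring fibril chain Col7a1 of skin, at up to 57 reads, were not tested. Col7a1 (chromosome 9, 108855631 to 108886920) had a value in 18 libraries and ran from -7.65 to -3.11 log2 RPKM in lumbar (median -4.56) and from -7.03 to -3.51 in sacral libraries (median -5.64).

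Among the FACIT collagens, 3 of the 4 members tested were higher in lumbar DRG and 5 were too low to test. Col12a1 (chromosome 9, 79446798 to 79566638) and Col14a1 (chromosome 15, 55139305 to 55352358) code for collagens that bind the surface of type I fibrils. Col12a1 ran from 1.28 to 3.17 log2 RPKM in lumbar (median 2.24) and from 0.39 to 2.35 in sacral libraries (median 1.61), and was 0.83 higher in lumbar DRG (SE 0.20, adjusted p = 0.00177, limma) in 9 of 10 donors. Col14a1 ran from 1.08 to 2.20 (median 1.77) and from -0.09 to 1.25 (median 0.79), and was 1.04 higher (SE 0.17, adjusted p = 7.99e-05) in all 10 donors. Col16a1 was 1.03 higher (adjusted p = 0.00569). Its mean exceeded -1 log2 RPKM in lumbar groups only, as did that of Col9a3, so both entered the test through the level where they are high. Col9a3, a chain of the cartilage FACIT type IX, differed by 0.88 (95% interval 0.12 to 1.64, adjusted p = 0.0542), in 8 of 10 donors. It passed under 8 of 26 other settings, among them without donor M5 (1.08, adjusted p = 0.0065, limma) or donor F3 (1.01, adjusted p = 0.0409). Its partner chains Col9a1 and Col9a2 had at most 6 and 58 reads.

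Col28a1 (ENSMUSG00000068794, chromosome 6, 7947808 to 8142617), a collagen known from peripheral nerve where it surrounds glial cells, was the collagen with the highest level per kilobase at both spinal levels. It ran from 3.73 to 4.86 log2 RPKM in lumbar (median 4.32) and from 3.0 to 4.09 in sacral libraries (median 3.42), with the narrowest spread of the members tested (SD 0.37 and 0.34, n = 10 each). The lumbar library was the higher one in 10 of 10 donors, by 0.85 (SE 0.12, adjusted p = 1.27e-05, limma). Col26a1 (chromosome 5, 137217629 to 137359079) lacked a value in 1 library, had up to 139 reads and was not tested. It ran from -4.04 to -0.99 in lumbar (median -1.82) and from -7.54 to -2.28 in sacral libraries (median -3.54).

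Transmembrane collagens went in different directions. Col23a1 (ENSMUSG00000063564, chromosome 11, 51103422 to 51397420) ran from 0.62 to 2.87 log2 RPKM in lumbar (median 2.06) and from 0.13 to 1.89 in sacral libraries (median 1.01). In 9 of 10 donors the lumbar library was higher, with female donor F5 the exception at a difference of -0.13. The log2 fold change was 1.0 (SE 0.19, adjusted p = 0.000268, limma). Col25a1 (ENSMUSG00000058897, chromosome 3, 129883809 to 130302795), a membrane collagen made by neurons and also known as the precursor of a component of amyloid plaques, ran from -1.58 to 0.08 in lumbar (median -0.60) and from -0.03 to 1.74 in sacral libraries (median 0.88). The ranges touched only where the lumbar library of male donor M3, at 0.08, exceeded the sacral library of male donor M2, at -0.03. All 10 donors had more Col25a1 in sacral DRG, with lumbar minus sacral differences of -0.37 in donor M3 to -2.91 in donor F5. The difference of -1.59 (SE 0.20, adjusted p = 4.48e-06, limma), or 3.01-fold higher in sacral DRG, was the largest in size among the 25 collagens tested, and rested on 120 to 1775 reads per library. That order depends on the scaling. Col5a3 was larger in size with TMM factors (1.53 against -1.48) and with voom and TMM (1.515 against -1.474). With a pseudocount of 1, Col4a2 was larger (0.96 against -0.81). A U6 small RNA gene is annotated inside Col25a1 on the same strand. Neuronal markers were also higher in sacral DRG in 8 of 10, as given further on, and their part in the Col25a1 difference was not tested.

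**Figure D3:**
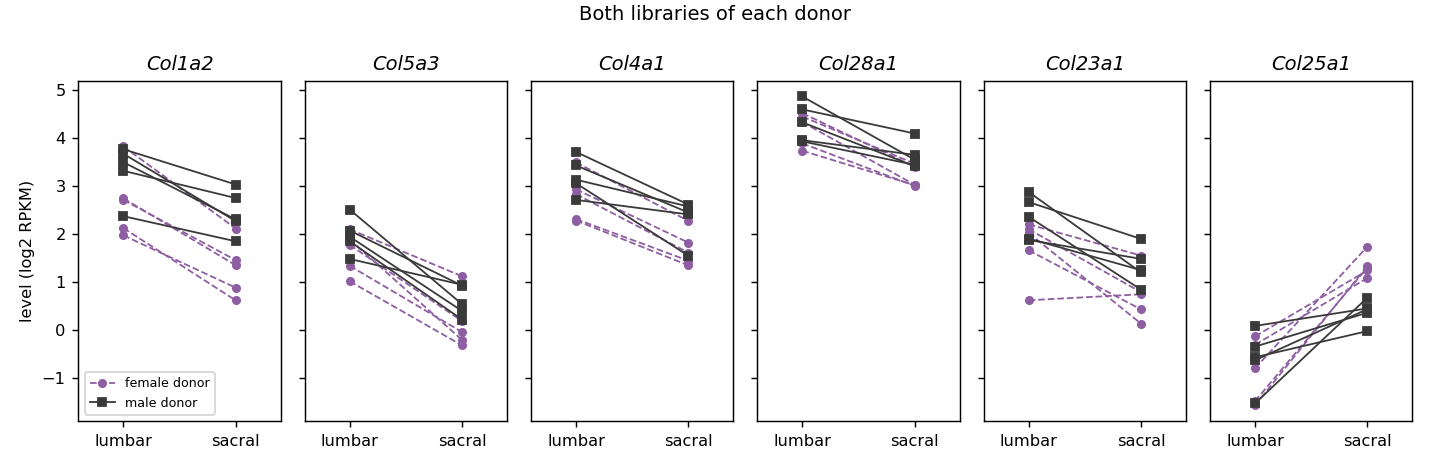
Level (log2 RPKM, y axis) of 6 collagen genes in the lumbar and the sacral library of each donor, joined by a line; squares with solid lines are 5 male and circles with dashed lines 5 female donors. Lines fall from lumbar to sacral in all 10 donors for Col1a2, Col5a3, Col4a1 and Col28a1 and in 9 for Col23a1, and climb in all 10 for Col25a1.

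For this pair of membrane collagens with opposite differences, the 250 bases before the RefSeq start (GRCm38.p6) are shown for Col23a1 (chr11:51289670-51289919, + strand) and Col25a1 (chr3:130180595-130180844, + strand), with matches to the same letters in capitals.
Col23a1: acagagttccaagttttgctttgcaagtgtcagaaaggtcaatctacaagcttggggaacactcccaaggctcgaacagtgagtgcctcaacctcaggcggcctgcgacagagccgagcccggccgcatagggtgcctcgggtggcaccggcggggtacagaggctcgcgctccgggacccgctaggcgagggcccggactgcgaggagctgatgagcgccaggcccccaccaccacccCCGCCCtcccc
Col25a1: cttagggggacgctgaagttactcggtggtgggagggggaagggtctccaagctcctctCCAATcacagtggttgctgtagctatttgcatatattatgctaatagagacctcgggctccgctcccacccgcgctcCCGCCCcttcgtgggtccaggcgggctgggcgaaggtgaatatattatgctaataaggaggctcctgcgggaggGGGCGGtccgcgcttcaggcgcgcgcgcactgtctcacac
The Col25a1 window held 1 match to CCAAT and 2 to GGGCGG or its reverse, and the Col23a1 window 1 to the reverse of GGGCGG. Neither held TATAAA or its reverse. Col13a1, a membrane collagen of the neuromuscular junction, had 1 to 62 reads per library and was higher in lumbar DRG in 10 of 10 donors, from -5.38 to -1.82 log2 RPKM (median -2.73) against -7.81 to -2.70 (median -4.36). Col17a1, the membrane collagen of hemidesmosomes, had a value in 13 libraries and at most 32 reads, at -6.76 to -2.98 in lumbar (median -4.95) and -7.52 to -3.94 in sacral libraries (median -5.62). Neither entered the test.

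The 19 members that were not tested had at most 342 reads in a library. With only the demand for 3 values in every group, 14 of them could be tested, and 7 were higher in lumbar DRG and 0 in sacral DRG (limma), where 13.8% and 24.8% of the genes in that fit were. The 7 included the fibrillar chain Col24a1 (log2 fold change 1.37, adjusted p = 0.000683), the basement membrane chain Col4a3 (1.24, adjusted p = 0.0032) and Col13a1 (1.69, SE 0.56, adjusted p = 0.0212). Col8a2 (2.20, SE 0.60, adjusted p = 0.00727) and Col26a1 (2.18, SE 0.56, adjusted p = 0.00435) were also among them. Sacral libraries held at most 36 reads of Col8a2, with no value in 2 of the 10, and Col26a1 was at -7.39 and -7.54 in the sacral libraries of donors F1 and F3 and between -4.25 and -2.28 in the other sacral libraries with a value, so that the size of these differences is poorly fixed. All 14 log2 fold changes lay above 0 (0 below at any p), from 0.49 to 2.20.

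Genes that make, modify and bind collagen were counted from lists, against shares of 15.6% higher in lumbar and 31.3% higher in sacral DRG over all genes tested. Of 31 genes of collagen biosynthesis, 26 were tested, 11 were higher in lumbar DRG, 4 in sacral DRG and 11 did not pass (median 0.33). Lox, which oxidizes lysines for cross-linking, was 1.66 higher (SE 0.39, adjusted p = 0.00164, limma) and the prolyl 3-hydroxylase gene P3h2 1.28 higher (SE 0.21, adjusted p = 5.46e-05) in lumbar DRG. Pcolce2, an enhancer of procollagen C-proteinase, was lower in lumbar than in sacral DRG by 1.16 (SE 0.15, adjusted p = 5.03e-06), and the galactosyltransferase gene Colgalt1 by 0.52 (SE 0.09, adjusted p = 0.00014), each in 10 of 10 donors. Of 12 collagen receptor genes, 9 were tested, 5 were higher in lumbar and 2 in sacral DRG (median 0.91). Lair1, an inhibitory receptor of immune cells, was 1.67 higher (adjusted p = 0.000401) and the discoidin receptor Ddr2 1.3 higher (adjusted p = 5.89e-06) in lumbar DRG. In sacral DRG the integrin subunits Itga11 (log2 fold change -0.83, adjusted p = 0.0453) and Itgb1 (-0.22, adjusted p = 0.0233) were the ones higher.

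Genes coding for other basement membrane proteins, the laminins, nidogens, perlecan and agrin, numbered 15. Of the 11 tested, 10 were higher in lumbar DRG and 0 in sacral DRG, against 15.6% and 31.3% of all genes. Their median log2 fold change was 0.80, and of the 10 Lama5 met the level filter in lumbar groups alone. The nidogens Nid2 and Nid1, which link laminin to type IV collagen, were 1.26 (SE 0.17, adjusted p = 1.06e-05, limma) and 1.0 higher (SE 0.11, adjusted p = 2e-06), each in all 10 donors. Of 9 genes for collagen breakdown and its inhibitors, 6 were tested, 3 were higher in lumbar and 1 in sacral DRG (median 0.96), against the same shares of all genes. The proteases Mmp2 and Mmp14 were 1.24 and 1.15 higher in lumbar DRG (adjusted p = 0.042 and 1.27e-05), and the inhibitor Timp2 was lower there than in sacral DRG by 0.26 (adjusted p = 0.0032).

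Of the markers tested for the non-neuronal cells of the ganglion, those of satellite glia were higher in lumbar DRG in 8 of 8, endothelial markers in 8 of 8, Schwann markers in 7 of 10, fibroblast markers in 7 of 10, mural markers in 5 of 7 (1 higher in sacral DRG) and macrophage markers in 2 of 3, against 15.6% of all genes. Among the 8 mural markers 1 was not tested, and among the 8 macrophage markers 5 were not. Of the called markers, 4 fibroblast (Dpt, Fbln1, Clec3b and Scara5) and 2 macrophage markers (Csf1r and Mrc1) met the level filter in lumbar groups alone. Of those that met it in at least 1 group at each level, 3 of 6 fibroblast, 5 of 6 mural and 0 of 1 macrophage markers were higher in lumbar DRG. Among these mural markers, Notch3 had a sacral mean of -1.22 over both sexes. Summed over a list, levels were 1148 to 2682 RPKM in lumbar against 599 to 1234 in sacral libraries for satellite glia, 797 to 1740 against 742 to 1254 for Schwann cells, 99.1 to 323 against 96.7 to 188 for fibroblasts, and 11.7 to 84.1 against 8.75 to 41.8 for endothelium. For mural cells these sums were 90.7 to 171 against 91.8 to 193, and for macrophages 2.18 to 12.1 against 1.71 to 3.70. Such a sum weighs the highest gene of a list most. For fibroblasts this was Dcn (log2 fold change -0.35), for Schwann cells Pmp22 (0.20) and for macrophages Cd68 (0.475), none of them called. For mural cells it was Rgs5, higher in sacral DRG (-0.37). Apoe (1.0) for satellite glia and Cdh5 (0.95) for endothelium were higher in lumbar DRG. The mean of the satellite glia markers was 0.97 higher in lumbar DRG (SD 0.31 over donors), that of the fibroblast markers 1.01 (SD 0.62), of the endothelial markers 0.97 (SD 0.43), of the Schwann markers 0.81 (SD 0.30), of the mural markers 0.83 (SD 0.42) and of the macrophage markers 1.0 (SD 0.73). Each of these was in 10 of 10 donors (exact sign-flip test, two-sided p = 0.00195, the smallest it can give) except the fibroblast mean, which was in 9 of 10 (exact p = 0.00391). The mean of the 10 neuronal markers was lower in lumbar than in sacral DRG by 0.50 (SD 0.22), in all 10 donors (exact p = 0.00195), and 8 of the 10 were higher in sacral DRG, against 31.3% of all genes. Over the 7 lists the largest adjusted p was 0.00391. The lists were chosen with earlier results of these data known, so these p-values are no independent support. No value was listed in some libraries for 2 fibroblast, 1 mural and 3 macrophage markers. These were left out of the means, which rest on 8 fibroblast, 7 mural and 5 macrophage markers. Cartilage and bone markers were near 0, at sums of 0.78 to 2.09 against 0.59 to 1.87 RPKM, with Matn1 without a value in any library, and 6 of the 7 lacking one in some. Of those 7 only Comp was tested, and it did not pass.

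When the mean of the glial markers (Schwann and satellite lists together) entered the fit, 0 of the 25 collagens were higher in lumbar DRG, where 0.221% of all genes were (limma, 1 at an unadjusted p under 0.05). Their median log2 fold change was then 0.08, and the highest values were 0.72 for Col1a1, 0.69 for Col8a1 and 0.66 for Col5a3. With the fibroblast marker mean instead, 8 of the 25 were higher in lumbar DRG (5.95% of all genes), namely Col1a2, Col5a3, Col4a1, Col4a2, Col4a5, Col14a1, Col23a1 and Col28a1, and the median was 0.46. Under that setting the type I and type III chains Col1a1 and Col3a1 were at 0.19 and 0.07, Col5a3 at 1.19 and Col28a1 at 0.75. Col25a1 was higher in sacral DRG under both, at -1.5 with the glial and -1.88 with the fibroblast markers, where 1.20% and 20.3% of all genes were (adjusted p at most 0.0345, limma). The marker means differ between the levels in nearly every donor, so a covariate and the level share much of their variation, and what part other cells have in the collagen differences was not tested.

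**Figure D4:**
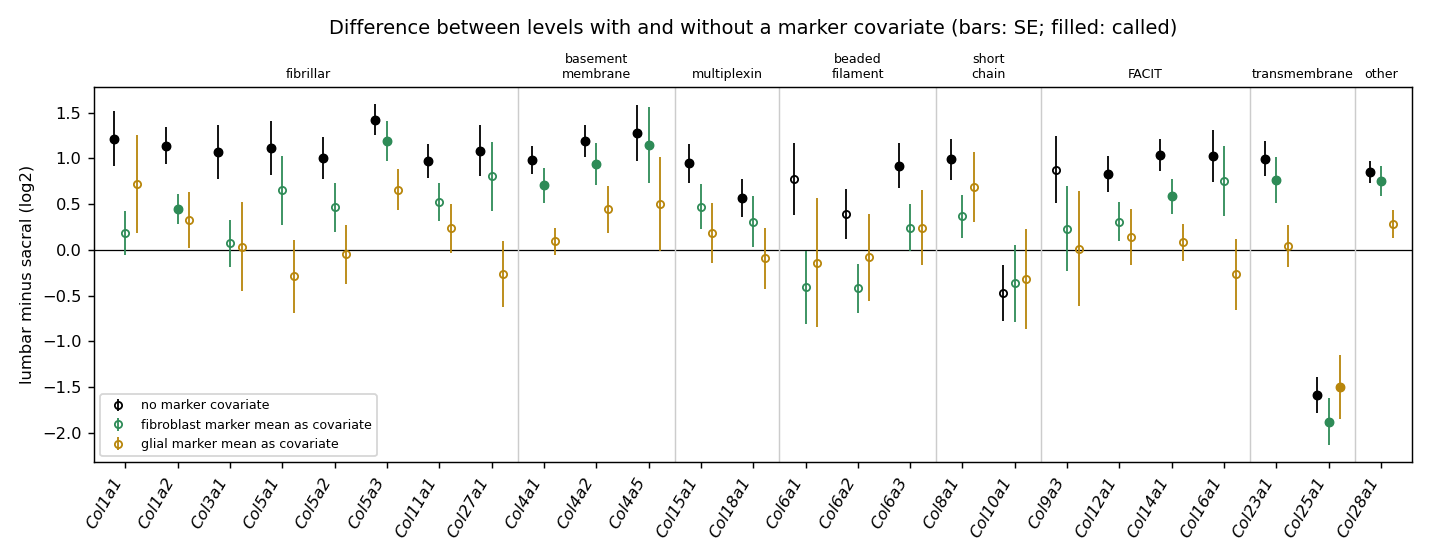
Lumbar minus sacral difference (log2, y axis) with its SE for the 25 tested collagen genes in the fit without a marker covariate (black), with the fibroblast marker mean (green) and with the glial marker mean (gold); filled points passed an adjusted p of 0.05. No gold point above 0 is filled, 8 green ones are, and Col25a1 is filled at -1.59, -1.88 and -1.5.

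The same members were compared between the sexes within each level, 5 female against 5 male libraries. At an adjusted p of 0.05, 0 collagens differed in lumbar and 0 in sacral DRG (limma), where 0.0126% and 0.0252% of all genes did. The log2 differences, female minus male, were below 0 for 25 of the 25 in lumbar DRG and for 22 in sacral DRG, with medians of -0.47 and -0.59, against -0.02 and -0.01 over all genes tested. An unadjusted p under 0.05 was reached by 4 members in lumbar and 9 in sacral DRG, against 11.5% and 8.07% of all genes, and the lowest adjusted p was 0.287. That belonged to Col1a2 in sacral DRG, where the female mean was 1.28 and the male mean 2.43 (difference -1.16, SE 0.31). Beside these values, the endothelial marker mean was lower in female than in male libraries by 0.76 in lumbar and 0.74 in sacral DRG on the log2 scale. For satellite glia it was lower by 0.37 and 0.35, and for Schwann cells by 0.41 and 0.52. For mural cells it was lower by 0.51 and 0.53. The fibroblast mean differed by 0.01 and -0.29, the macrophage mean by 0.03 and -0.25 and the neuronal mean by 0.19 and 0.001. Their part in the sex differences of the collagens was not tested.

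**Figure D5:**
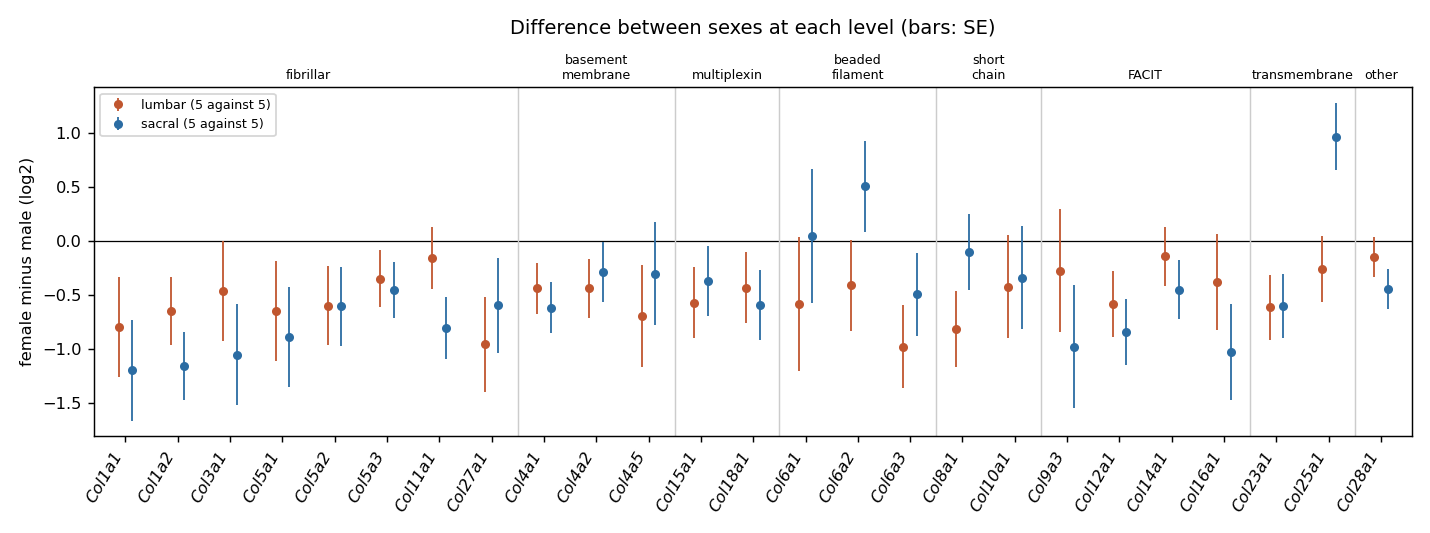
Female minus male difference (log2, y axis) with its SE for the 25 tested collagen genes in lumbar (orange) and sacral (blue) libraries, 5 against 5 each. All 25 orange points and 22 blue points lie below 0, none passed an adjusted p of 0.05, and sacral Col25a1 lies highest, at 0.96.

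Of the 25 members tested, Col25a1 was the one whose level effect differed most between the sexes. Sacral female libraries had a mean of 1.34 and sacral male libraries of 0.38 (difference 0.96, unadjusted p = 0.00518, adjusted p = 0.429, limma), whereas lumbar means were -0.86 and -0.60. The lumbar minus sacral difference was -2.20 in female and -0.98 in male donors, and the difference between them of -1.22 (unadjusted p = 0.00558) did not pass adjustment over all genes. An unadjusted p under 0.05 for such a difference was reached by 1 of the 25 members, against 3.95% of all genes. Each sex had the difference in its own right, with adjusted p = 4.43e-05 in female and 0.0124 in male donors.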

How the data were processed

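RNA amplified to double-stranded cDNA was sequenced for the 20 libraries. Per the labels and methods, the authors used Subread (1.18 or higher) for alignment to mm9, retained reads with a unique place, counted by featureCounts over Ensembl genes, and used voom (limma 3.26.9) with TMM factors (edgeR 3.12.1). What the authors deposited is log2 RPKM. The equal medians of all libraries come from a step that is not given in the sources used here, and neither is strand use in counting, so values of the 21 members that overlap another annotated gene (13 of those tested) are uncertain.

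Genes were matched to GENCODE vM1 on NCBIM37 (mm9), 37205 of 37620. Low values step by whole reads, and the reads worked back from them came out whole within 0.01 for 98.9% of genes with a value and for all members. Every column was mapped to a sample. Groups came from the labels, and lumbar and sacral libraries were paired by the animal numbers these give. Deviations from the group means correlated by 0.18 on average within a donor (0.04 to 0.30) and by -0.04 between donors.

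Genes with at least 3 values in every group and a mean above -1 log2 RPKM in at least 1 group were tested with limma 3.58.1 and statmod 1.5.0 (R 4.3.3), with 4 group means. Donor entered as a random block, variances were moderated along a trend, and p-values were adjusted by Benjamini-Hochberg at 0.05. Empty cells were left empty and no pseudocount was added. The fit was tested on simulated data. That the 2 animal numbers of a donor are separate samples is not stated, so p-values describe the spread between these donors. Correlations used 100000 permutations, two-sided (scipy 1.17.1, numpy 2.4.6, pandas 2.3.3, Python 3.11.15), and plots matplotlib 3.10.9. Read totals give the depth behind a member and describe counting error only.

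Full values are given for the 2 members with the highest mean in each class, the 5 with the largest called change in each direction and the transmembrane members. From each pathway list, the 2 genes with the largest called change in each direction are named, and other named genes were chosen after their values were seen. Members and lists were chosen with earlier results of these data known. Of the listed genes, Mia3 was not matched. Alternatives were other filters, pseudocounts of 1 and 0.1, quantile, TMM and voom scaling, other donor models, no trend, array weights, each donor or sex left out, marker covariates and an adjusted p of 0.01.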

Additional observations from a re-analysis of the deposited data

Results flagged for a closer look

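Single libraries stood apart within a group of 5 in 5 of the 72 groups of named members examined, where chance marks about 1 in 20. Male donor M5 held 3 of them, with Col3a1 at 1.57 log2 RPKM in its lumbar library (the other 4 male libraries at 3.19 to 3.82), Col4a1 at 1.54 in its sacral library (others 2.40 to 2.61) and Col14a1 at 0.091 in its sacral library (others 0.93 to 1.25). Col15a1 was at 1.28 in the lumbar library of female donor F3, where the other female libraries were at 0.55 to 0.75. Col6a2 was at -0.34 in the sacral library of female donor F2, with the others at 0.19 to 0.31. Without donor M5, 21 of 26 collagens tested were higher in lumbar DRG and 1 in sacral DRG, where 2358 and 4313 of 15883 genes were.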

How the results depend on the processing

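Of 661 differences of single collagens under 27 other settings, 592 kept their direction and their side of the threshold, 48 no longer passed, 11 newly passed and 10 changed sign. The 10 were Col5a1 (-0.29), Col5a2 (-0.048), Col27a1 (-0.27), Col18a1 (-0.094), Col16a1 (-0.27), Col6a1 (-0.14) and Col6a2 (-0.081) with the glial covariate, Col6a1 (-0.41) and Col6a2 (-0.42) with the fibroblast covariate, and Col6a2 (-0.065) in female donors alone. None of these passed the test there. Outside the marker covariates, the 21 called members kept their direction, and 13 also their call, in every setting run. The count of collagens higher in lumbar DRG, 20 of 25, became 12 of 13 with a mean above 1 log2 RPKM, 13 of 23 in female donors alone (16 of 25 in male donors alone), 8 with the fibroblast covariate and 0 with the glial covariate. Over all genes, 1721 of 11427, 1173 of 15479 and 1685 of 15753 were higher in lumbar DRG in the first, the female and the male of these fits. Within the fit on all donors, the count was 15 in female and 13 in male donors, so the order of the sexes rests on the fit. Of the 15871 genes in that fit, 1341 were higher in lumbar DRG in female and 1558 in male donors. The count of 20 ran from 19 to 21 when each donor was left out, while that over all genes ran from 2158 of 15836 to 2538 of 15850. A pseudocount of 1, which shrinks low genes most, brought these 20 differences to 0.23 (Col18a1) to 0.96 (Col4a2), that of Col4a5 from 1.28 to 0.31, and Col25a1 to -0.81. The count higher in sacral DRG stayed at 1 in every setting except voom on total reads, which gave 2 (Col10a1 joined, at -0.78, a gene that met the level filter in the sacral male group alone). That scaling moved the median of all genes to -0.45, and TMM factors to -0.01. The count between sexes was 0 with no level filter, a pseudocount of 1, quantile normalization, voom with TMM factors and no replicate block. It was also 0 with each donor left out, and under the other settings it was not counted. The fits with a fixed replicate block and with no replicate block called 22 and 19 of 25 collagens higher in lumbar DRG. Over all 15871 genes they called 2448 and 2169, so the pairing by donor moved the collagen count little. The 19 members not tested were left out by their level or by missing values and had at most 342 reads in a library, and no setting varied the depth.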
